A study of Arabidopsis thaliana with 8 samples.

Results

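The genes described here are 79 *Arabidopsis thaliana* genes annotated with photosystem, thylakoid or other plastid terms, antenna genes excepted. They were chosen by wording and not by direction: a gene was a member where its short description in any of 5 comparison tables held "photosystem", "thylakoid" or "plastid" and did not hold "light harvesting" or "light-harvesting". The rule took 79 of the 7195 genes that have a description in any table, and 7948 genes in all are in a table. Of the members, 73 are nuclear genes and 6 are encoded in the plastid genome. A gene enters a table only at an adjusted p under 0.05, so every member passed in at least 1 comparison, and plastid genes that passed in none are not analysed here.

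The tables come from RNA sequencing of whole seedlings of 4 genotypes, all in the Col-0 ecotype, grown for 7 days in continuous white light on B5 medium, with 2 poly-A RNA libraries each. Col-0 was the wild type. The *nf-yc triple* line carried the T-DNA alleles *nf-yc3-1*, *nf-yc4-1* and *nf-yc9-1*, of which the last keeps some expression, *hy5* carried a T-DNA insertion in *HY5*, and *nf-yc triple hy5*, called the combined mutant below, carried all of these. NF-YC proteins are subunits of NUCLEAR FACTOR-Y, a trimeric transcription factor that binds CCAAT boxes, and HY5 is a bZIP transcription factor that promotes light-dependent seedling development. The tables give, for each mutant against Col-0 and for the combined mutant against each parental line, a log2 fold change, a mean log2 CPM of the pair and an adjusted p. Values of single libraries were not used here, so sequencing depth and the SD and standard error of a gene are unknown, and each fold change and adjusted p below stands as in the tables that the authors deposited. As a check of the labels, *NF-YC3* stood at -4.08, *NF-YC4* at -0.97 and *NF-YC9* at -2.29 in *nf-yc triple* against Col-0. *NF-YC4* fell least of these, so RNA from *nf-yc4-1* also remained in these libraries. *HY5* was listed in no comparison, so its level does not check the *hy5* label.

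Photosynthesis in the thylakoid membrane begins with photosystem II, which takes electrons from water, and ends with photosystem I, which passes them to ferredoxin. Each photosystem is a mosaic: the chlorophyll-binding core proteins are encoded in the plastid, and most peripheral subunits are encoded in the nucleus and imported. Seedlings in light express the nuclear genes together with genes for the plastid's own transcription, translation, lipid bodies and division. In whole seedlings, fewer green cells and less RNA per cell cannot be told apart.

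To show the regulatory sequence of genes that moved in opposite directions, 4 promoters were taken from TAIR10.1 with its NCBI RefSeq annotation and matched by locus tag; reads had been mapped to TAIR10 gene models, another release. Each is the 300 bases before the annotated gene start, written 5′ to 3′ on the gene's own strand, and capitals mark CACGTG (the G-box, a palindrome) and CCAAT on either strand (ATTGG where it lies on the opposite strand). *PSAH2* (chr1:19454498-19454797, plus strand) and *PSBQ-2* (chr4:2673244-2673543, minus strand) are photosystem genes that were lower in all 5 comparisons, and *PTAC17* (chr1:30260733-30261032, minus strand) and *OEP16-1* (chr2:12415662-12415961, minus strand) were higher wherever they were listed.
PSAH2: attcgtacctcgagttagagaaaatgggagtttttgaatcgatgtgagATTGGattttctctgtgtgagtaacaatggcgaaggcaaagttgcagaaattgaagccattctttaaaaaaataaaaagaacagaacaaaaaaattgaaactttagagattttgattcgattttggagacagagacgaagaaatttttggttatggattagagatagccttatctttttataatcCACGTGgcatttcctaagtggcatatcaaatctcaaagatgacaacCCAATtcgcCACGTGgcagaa
PSBQ-2: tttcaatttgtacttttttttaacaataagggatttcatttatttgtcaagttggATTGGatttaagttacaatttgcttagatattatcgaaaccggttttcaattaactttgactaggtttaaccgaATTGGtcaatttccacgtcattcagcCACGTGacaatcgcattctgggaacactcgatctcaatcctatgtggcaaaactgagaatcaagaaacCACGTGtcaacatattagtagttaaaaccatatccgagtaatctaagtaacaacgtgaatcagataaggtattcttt
PTAC17: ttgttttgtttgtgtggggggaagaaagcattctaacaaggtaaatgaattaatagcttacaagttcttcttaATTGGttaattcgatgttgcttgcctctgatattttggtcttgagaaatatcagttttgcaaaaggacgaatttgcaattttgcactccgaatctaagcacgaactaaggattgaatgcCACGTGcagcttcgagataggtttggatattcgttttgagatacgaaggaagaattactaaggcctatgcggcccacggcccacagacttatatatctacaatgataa
OEP16-1: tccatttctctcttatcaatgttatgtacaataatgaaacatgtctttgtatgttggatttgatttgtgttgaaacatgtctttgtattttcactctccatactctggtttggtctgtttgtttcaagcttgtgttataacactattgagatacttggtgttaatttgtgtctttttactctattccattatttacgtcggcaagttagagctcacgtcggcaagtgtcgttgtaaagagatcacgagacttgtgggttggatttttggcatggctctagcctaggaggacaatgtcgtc

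The *PSAH2* and *PSBQ-2* promoters each held 2 G-boxes and 2 CCAAT motifs. *PTAC17*, which was higher in *hy5* and in the combined mutant, also held 1 of each, and *OEP16-1* held neither. *PSAH2* and *PSBQ-2* were the only photosystem members lower in every comparison that held a G-box, so they are not typical of these. *PSAD-1*, *PSAD-2*, *PSAL*, *PSBR* and *PSBP-1*, for example, were lower in every comparison and held none. A G-box stood in 13 of the 72 nuclear members with a promoter (18.1%), and in 7.09% of the promoters of all 27443 nuclear protein-coding genes. Of the 21 nuclear photosystem II members, 20 had a promoter, and 7 of these held a G-box (35.0%), and the 13 nuclear photosystem I members included 2 (15.4%). CCAAT was in 36 of 72 members (50.0%) and in 51.9% of all promoters, and the shorter core ACGT, which every G-box contains, was in 42 members (58.3%) and 49.0% of all promoters. Of the 17 antenna genes, which the rule leaves out, 4 held a G-box (23.5%) and 15 held CCAAT (88.2%). Among members lower in *hy5* against Col-0, 9 of 44 held a G-box (20.5%) and 19 held CCAAT (43.2%). Among members higher there, 1 of 10 held a G-box (10%) and 6 held CCAAT (60%). The difference between these directions was not tested. A match is only a description of these letters in this window.

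Many photosystem genes were lower by a small amount in *nf-yc triple* and in *hy5*, and fell below both parents in the combined mutant. In *nf-yc triple* against Col-0, 49 of the 79 members were listed, and all 49 were lower (62.0% of members), with log2 fold changes between -0.47 and -0.21 and a median of -0.32. Among all 7195 described genes, 19.5% were lower and 17.8% higher in that comparison, which lists 15.2% of the 19177 genes tested. In *hy5* against Col-0, 44 members were lower (55.7%) and 10 were higher (12.7%), with a median of -0.38 over the 54 listed. The same shares of all described genes were 29% and 32.5%, and the comparison lists 25.5% of the genes tested. In the combined mutant against Col-0, 50 members were lower (63.3%) and 6 higher (7.59%), with a median of -0.53 over the 56 listed. There 32.7% of all described genes were lower and 32.5% higher, and 27.1% of the genes tested are listed. These 3 comparisons share the Col-0 libraries, so their values are set side by side and are not independent.

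**Figure D1:**
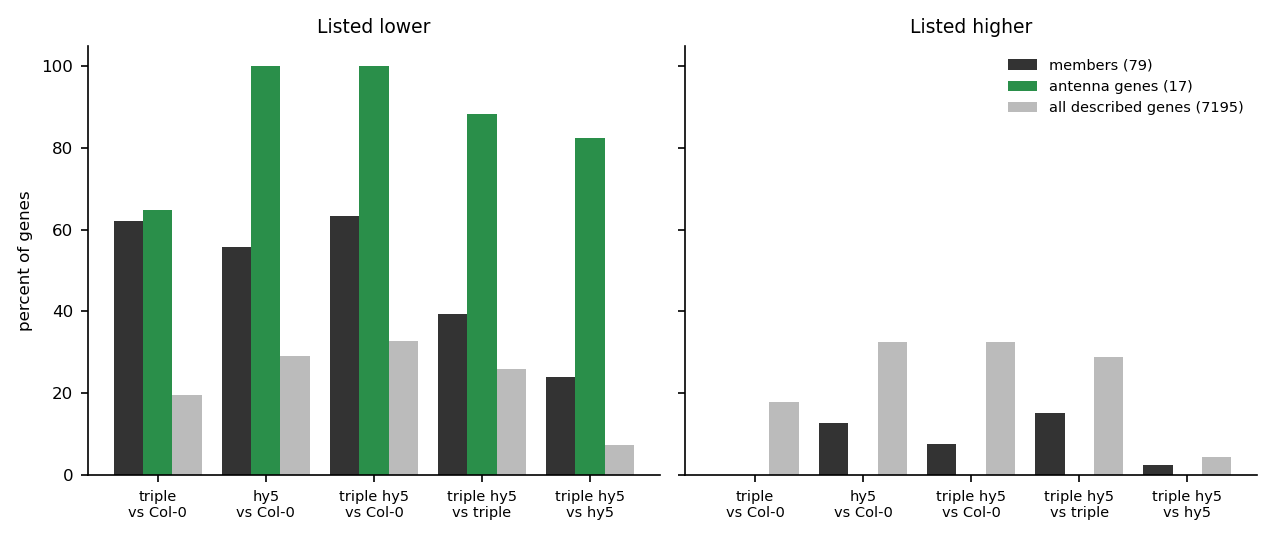
Percent of genes listed lower (left) and higher (right) at an adjusted p under 0.05 in each of the 5 comparisons, for the 79 members, the 17 antenna genes and all 7195 described genes; "triple" stands for *nf-yc triple*. Members listed lower make up 62.0%, 55.7% and 63.3% in the 3 comparisons with Col-0, against 19.5%, 29% and 32.7% of all described genes.

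The changes were small against a fold limit. At 1.5-fold (0.58 on the log2 scale), no member was called in *nf-yc triple*, where 6.31% of all described genes were called lower and 8.26% higher. In *hy5*, 5 members were called lower and 2 higher, with 11.6% and 16.9% of all described genes. In the combined mutant, 24 members were called lower (30.4%) and 3 higher (3.80%), with 16.6% and 18.2% of all described genes. The median of all listed described genes in these comparisons was -0.24, 0.27 and -0.22. Small changes are mostly not listed, so the sign of such a median follows the direction with more genes and is no typical shift. In *hy5*, 2337 described genes were higher and 2088 lower, where more members were lower than higher. In the combined mutant the described genes were 2338 higher and 2353 lower.

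Most root cell markers that were listed against Col-0 were higher, where most members were lower, but against the parents both were mostly lower. Of the 16 root markers in the list, *nf-yc triple* had 10 higher and 2 lower (median 1.11), *hy5* had 9 higher and 1 lower (median 0.68), and the combined mutant had 8 higher and 1 lower (median 0.56). Against *nf-yc triple* the combined mutant had 2 higher and 6 lower (median -0.78), and against *hy5* it had 0 higher and 2 lower. *PIP2;4*, a root aquaporin, stood at 1.31, 1.82 and 1.78 against Col-0. The root glucosidase gene *PYK10* was lower in all 3 mutants, at -0.76, -0.53 and -0.74, and *THAS1*, of thalianol synthesis, was lower in *nf-yc triple* (-1.33) but higher in *hy5* (0.55). *PRP3* and *LRX1*, of root hairs, stood at 1.24 and 1.08 in *nf-yc triple* and were listed in neither other mutant against Col-0, and at -1.34 and -0.93 in the combined mutant against *nf-yc triple*. The share of root in each library and its part in the members' values was not tested, and the summed level of the markers in each group is not analysed here.

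The direct comparisons with each parent gave the change that was added by the other mutation. Against *nf-yc triple*, the combined mutant had 31 members lower (39.2%) and 12 higher (15.2%), with a median of -0.36 over the 43 listed and -0.21 over the 59 members that had a listed value or one derived from 2 other tables, where 25.8% of described genes were lower, 29% higher and 22.4% of genes tested are listed. At 1.5-fold, 6 members were lower and 8 higher, beside 11.3% and 13.1% of described genes. Against *hy5*, 19 members were lower (24.1%) and 2 higher (2.53%), with a median of -0.30 over the 21 listed and -0.19 over the 48 with a listed or derived value, where 7.32% of described genes were lower, 4.31% higher and 4.76% of genes tested are listed. Only *PSBP-2* passed 1.5-fold there, lower, and none passed higher, beside 2.97% and 1.38% of described genes.

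The 13 nuclear photosystem I members all had log2 fold changes under 0 wherever they were listed. In *nf-yc triple*, 12 of them were lower, with a median of -0.31, and in *hy5* and in the combined mutant all 13 were lower, with medians of -0.50 and -0.74. Of the 13, 10 passed 1.5-fold in the combined mutant, 2 in *hy5* and none in *nf-yc triple*. Against *nf-yc triple* all 13 were lower again, with a median of -0.42, and against *hy5* 9 were lower, with a median of -0.30.

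*PSAD-1* and *PSAD-2* encode the stromal subunit on which ferredoxin docks. *PSAD-2* had log2 fold changes of -0.26 in *nf-yc triple*, -0.63 in *hy5* and -1.10 in the combined mutant against Col-0 (adjusted p = 0.00368, 1.71e-15 and 6.06e-39). In the combined mutant it fell by 0.82 on the log2 scale relative to *nf-yc triple*, and it stood at -0.46 relative to *hy5*. Its paralog *PSAD-1* stood at -0.31, -0.52 and -0.87 against Col-0, so it was lower in the same 3 mutants and less so in the combined one. Near-identical copies such as these may share reads, and how such reads were counted is not given in the sources used here.

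*PSAH2* encodes the subunit by which photosystem I accepts the mobile light-harvesting complex in state transitions. It stood at -0.32 in *nf-yc triple*, -0.64 in *hy5* and -1.00 in the combined mutant (adjusted p = 0.000152, 3.51e-14 and 5.43e-35), and at -0.67 and -0.35 against the 2 parents. Its paralog *PSAH-1* moved less, at -0.25, -0.38 and -0.62 against Col-0. *PSAL* and *PSAO*, neighbours of PSAH in the same docking region, stood at -0.85 and -0.74 in the combined mutant and at -0.33 and -0.29 in *nf-yc triple*.

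*PSAE-1*, a second stromal subunit at the ferredoxin side, had log2 fold changes of -0.43, -0.58 and -0.87 in the 3 mutants against Col-0, and its paralog *PSAE-2* had -0.22, -0.29 and -0.46. *PSAG* and *PSAK*, which sit at the edges of the complex, stood at -0.72 and -0.74 in the combined mutant. The smallest changes of the role there were in *PSAN* (-0.45), a lumenal subunit, in *PSAE-2* and in *PSAF* (-0.49), which docks plastocyanin. *PSAF* was the 1 nuclear photosystem I member that was not listed in *nf-yc triple*. *PSI-P*, a thylakoid membrane protein named after photosystem I, had the largest change of the role in *nf-yc triple*, at -0.46.

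**Figure D2:**
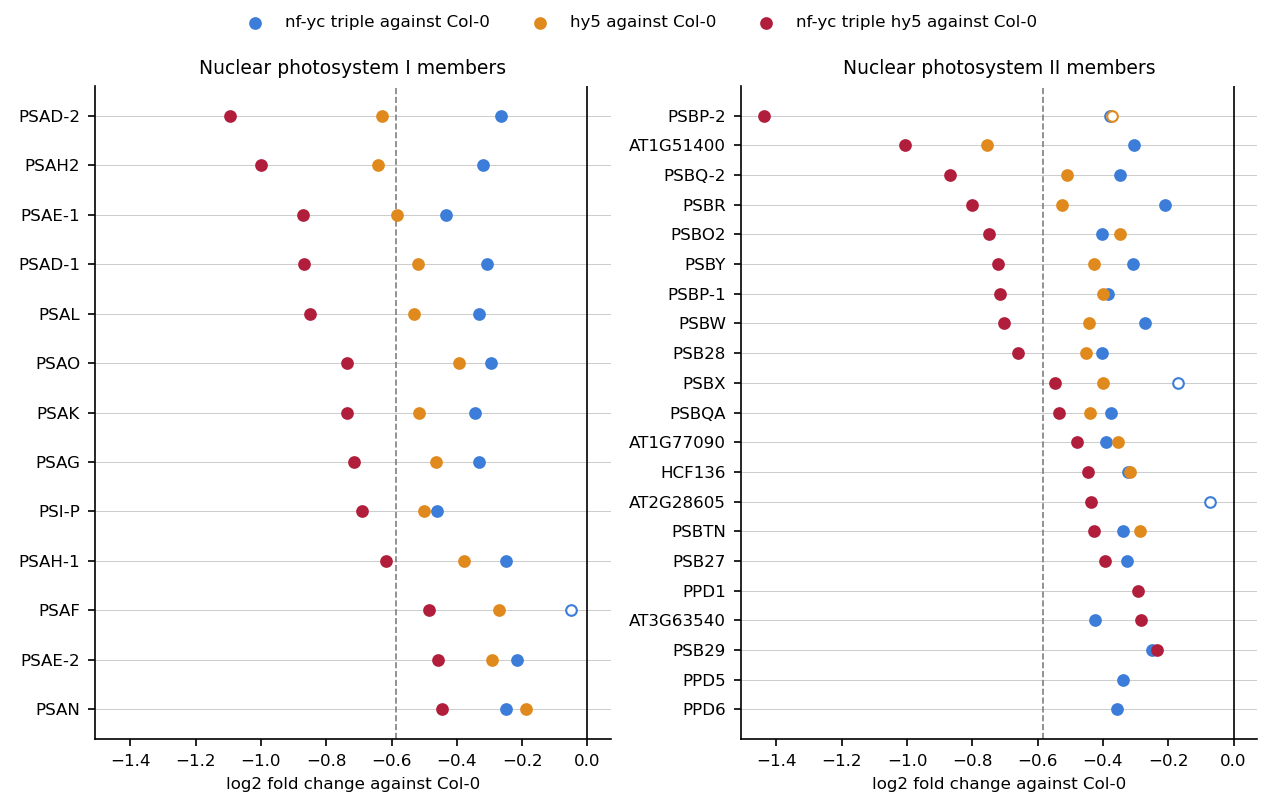
Log2 fold change against Col-0 (x axis) of the 13 nuclear photosystem I members (left) and the 21 nuclear photosystem II members (right) in *nf-yc triple* (blue), *hy5* (orange) and the combined mutant (red). Filled points are listed values, open points are derived from 2 other tables and carry no p, and the dashed line is a 1.5-fold decrease; all points lie below 0 and no *nf-yc triple* point reaches the dashed line.

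Photosystem II showed the same directions with more gaps. Of its 21 nuclear members, 17 were lower in *nf-yc triple* (median -0.34), 13 in *hy5* (median -0.43) and 19 in the combined mutant (median -0.55), and none was higher. Against the parents, 11 were lower against *nf-yc triple* and 7 against *hy5*. At 1.5-fold, 9 of them were called lower in the combined mutant and 1 in *hy5*.

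The extrinsic proteins PSBO, PSBP, PSBQ and PSBR shield the water-splitting cluster on the lumenal side. *PSBO2* stood at -0.40 in *nf-yc triple*, -0.35 in *hy5* and -0.75 in the combined mutant against Col-0. *PSBP-1* stood at -0.39, -0.40 and -0.72, and *PSBQ-2* at -0.35, -0.51 and -0.87 (adjusted p = 8.52e-06, 3.12e-09 and 7.22e-27 for *PSBQ-2*). *PSBR* was among the least changed in *nf-yc triple*, at -0.21, and stood at -0.52 in *hy5* and -0.80 in the combined mutant. *PSBQA*, the other PSBQ gene, stood at -0.37, -0.44 and -0.53, and it was not listed against either parent.

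*PSBP-2*, a second PSBP gene with a low mean log2 CPM of 1.60, had the lowest value of any member. It was listed only where the combined mutant took part, at -1.44 against Col-0, -1.05 against *nf-yc triple* and -1.05 against *hy5* (adjusted p = 2.85e-05, 0.00645 and 0.0204). AT1G51400, annotated as a 5 kD photosystem II protein, stood at -0.30, -0.75 and -1.01 against Col-0, the largest change in *hy5* among the photosystem members.

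Small intrinsic subunits and assembly factors made up the rest. *PSBW*, *PSBX* and *PSBY*, single-span membrane subunits, stood between -0.72 and -0.55 in the combined mutant. *PSB28* and *HCF136*, which act in assembly of the complex, stood at -0.66 and -0.45 there, and *PSB27* and *PSB29* at -0.39 and -0.24. *PSBTN*, a small lumenal subunit, stood at -0.34, -0.29 and -0.43 against Col-0 and was not listed against the parents. Lumenal PsbP-domain proteins gave 6 further members. *PPD5* and *PPD6* were listed only in *nf-yc triple*, at -0.34 and -0.36, and *PPD1* only in the combined mutant, at -0.29. AT1G77090 stood at -0.39, -0.35 and -0.48 in the 3 mutants against Col-0, AT3G63540 at -0.42 in *nf-yc triple* and -0.28 in the combined mutant, and AT2G28605 at -0.44 in the combined mutant.

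**Figure D3:**
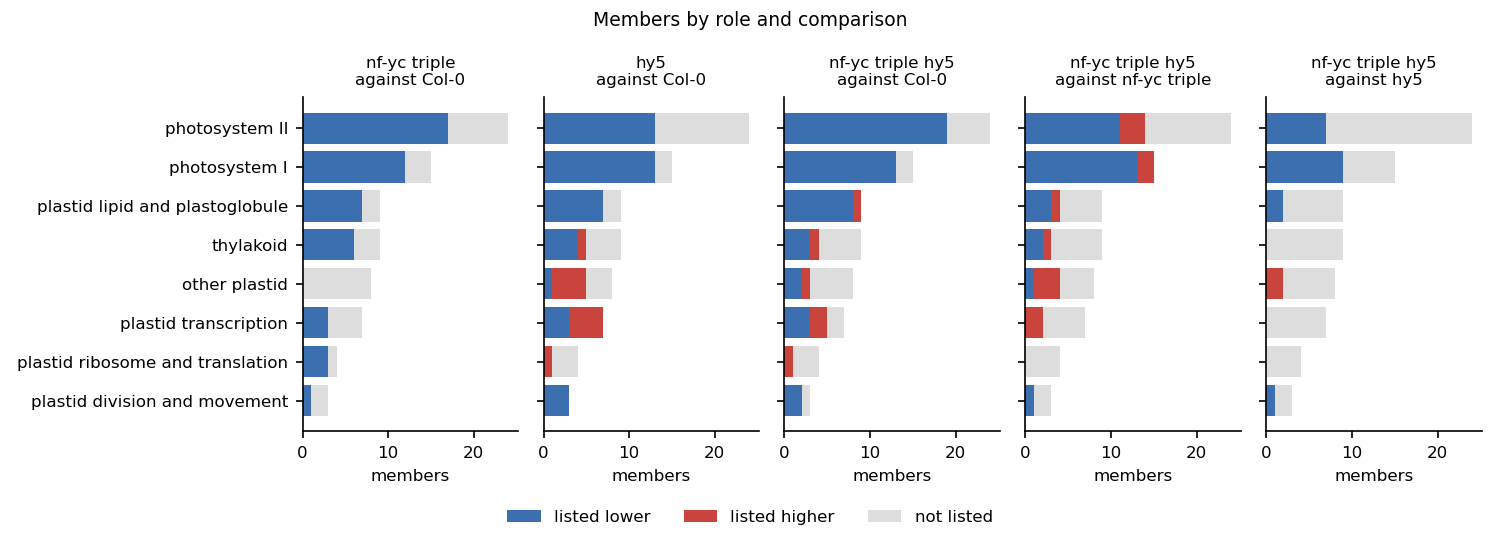
Number of members (x axis) listed lower, listed higher or not listed at an adjusted p under 0.05, by role, in each of the 5 comparisons. The bars of photosystem I and II hold no higher member in the comparisons with Col-0, and in *hy5* 4 higher members stand under plastid transcription and 4 under other plastid.

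Members of the thylakoid without a photosystem name number 9. In *hy5*, 4 were lower and 1 higher, in the combined mutant 3 were lower and 1 higher, and in *nf-yc triple* 6 were lower. None was called at 1.5-fold. *TLP18.3*, a lumenal protein of photosystem II repair, stood at -0.29, -0.39 and -0.58 in the 3 mutants against Col-0. *TROL*, which tethers ferredoxin-NADP reductase to the membrane, stood at -0.31, -0.45 and -0.53. The lumenal protein AT3G44020 stood at -0.47 in *nf-yc triple*, the lowest value of any member there, and at -0.52 in the combined mutant. *TAPX*, a thylakoid ascorbate peroxidase, *TAP38*, the phosphatase of the mobile antenna, and AT4G24930 were listed in *nf-yc triple* alone, at -0.25, -0.27 and -0.37. *COR314-TM2* and AT4G02530 were listed in *hy5* alone, at -0.27 and -0.26. *TPP*, a thylakoidal processing peptidase, was the higher one, at 0.28 in *hy5* and 0.25 in the combined mutant.

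Fibrillins, the lipid-associated proteins of thylakoids and plastoglobules, were mostly lower. Of the 9 such members, 7 were lower in *nf-yc triple*, 7 in *hy5* and 8 in the combined mutant. AT5G19940 stood at -0.28, -0.50 and -0.93 against Col-0 and was also lower against both parents, at -0.64 and -0.42. AT2G46910 stood at -0.72 in *hy5* and -0.68 in the combined mutant and was not listed in *nf-yc triple*, whereas *FIB4* had -0.33, -0.24 and -0.44. AT4G22240 was lower in all 5 tables, at -0.41, -0.42 and -0.78 against Col-0. The others, AT2G42130, AT2G35490, AT1G51110 and AT3G26070, lay between -0.51 and -0.31 in the combined mutant. AT5G09820 was the exception, higher by 0.45 in the combined mutant against Col-0 and by 0.61 against *nf-yc triple*.

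Among the 3 members for division and movement, *PDV2*, a component of the plastid division ring, was lower in all 5 tables, at -0.36, -0.37 and -0.85 against Col-0 and -0.47 against each parent. *PMI1*, needed for chloroplast movement in light, stood at -0.31 in *hy5* and -0.34 in the combined mutant. AT1G66480, annotated as plastid movement impaired 2, had the lowest *hy5* value of any member, -0.77 (adjusted p = 0.0153), at a mean log2 CPM of 2.07.

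Proteins found with the plastid's transcribing DNA did not move as 1 block. Of the 7 in *hy5*, 3 were lower and 4 higher. *PTAC16* stood at -0.41, -0.44 and -0.60 in the 3 mutants against Col-0, and *PTAC4*, which is VIPP1, a protein of thylakoid formation, at -0.28, -0.34 and -0.44. *PTAC5* was close to it, at -0.27, -0.38 and -0.42. *PTAC17* went the other way, at 0.56 in *hy5* (adjusted p = 1.78e-09), 0.63 in the combined mutant and 0.77 against *nf-yc triple*. *PTAC18*, with a mean log2 CPM of 2.47, stood at 0.97 in *hy5* and 0.72 in the combined mutant. *PTAC6* and *PTAC12*, which associate with the plastid-encoded RNA polymerase, stood at 0.22 and 0.34 in *hy5*. None of these 4 was listed in *nf-yc triple*.

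Plastid ribosomal proteins were listed at small changes. *PRPL11*, *PSRP5* and *PSRP6* were listed in *nf-yc triple* alone, at -0.21, -0.23 and -0.28, and *RPL3P* was higher in *hy5* and the combined mutant, at 0.37 and 0.32.

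The highest value of any member was in *OEP16-1*, a channel protein of the outer envelope. It stood at 1.06 in *hy5* and 1.41 in the combined mutant against Col-0 (adjusted p = 2.54e-29 and 2.21e-45), at 1.38 against *nf-yc triple* and at 0.36 against *hy5*, and it was not listed in *nf-yc triple*. *MORF3*, *MORF6* and AT1G32580, of a family that edits organellar transcripts, stood at 0.39, 0.38 and 0.28 in *hy5*. They are members through the description "plastid developmental protein DAG, putative", and the organelle in which each acts was not checked. *PKp3*, a plastidial pyruvate kinase, was the 1 lower member of this mixed role in *hy5*, at -0.28. *PTF1*, a transcription factor, was lower in the combined mutant, at -0.53 against Col-0 and -0.41 against *nf-yc triple*. *GAPCP-2*, a plastid enzyme of glycolysis, was listed only against *nf-yc triple*, at 0.45.

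The plastid-encoded members departed from the nuclear ones in the comparison of the combined mutant with *nf-yc triple*. *psaA* and *psaB*, the core of photosystem I, stood at 1.31 and 1.33 (adjusted p = 0.000154 and 1.7e-05). *psbA*, *psbB* and *psbE*, for the D1, CP47 and cytochrome b559 proteins of photosystem II, stood at 0.71, 0.92 and 1.05. All 5 were higher, while 31 of the 38 listed nuclear members were lower, so in both photosystems the core and the nuclear subunits had opposite signs. None of the 5 was listed in any other comparison, and the sixth, *clpP*, a protease subunit, was listed only against *hy5*, at 0.50. Without these 6 genes, the members called at 1.5-fold against *nf-yc triple* were 3 higher and 6 lower.

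The same direction held for plastid-encoded genes outside the rule in that comparison. All 18 plastid-encoded genes listed there, the 5 members included, were higher, as were all 4 mitochondrion-encoded genes listed. The 18 lay between 0.71 and 1.33, and the members *psbA* and *psaB* set the ends of that range. In *hy5* against Col-0, in contrast, 10 plastid-encoded genes were listed, none of them a member, and all were lower, between -1.28 and -0.52. Against Col-0, *nf-yc triple* had 3 plastid-encoded genes listed, none of them a member, and all were lower, between -0.77 and -0.44. So a higher value against *nf-yc triple* is not shown to be a rise over Col-0. Libraries were made from RNA selected by poly-A tails, which plastid messages mostly lack, and the part of that selection in these values was not tested.

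**Figure D4:**
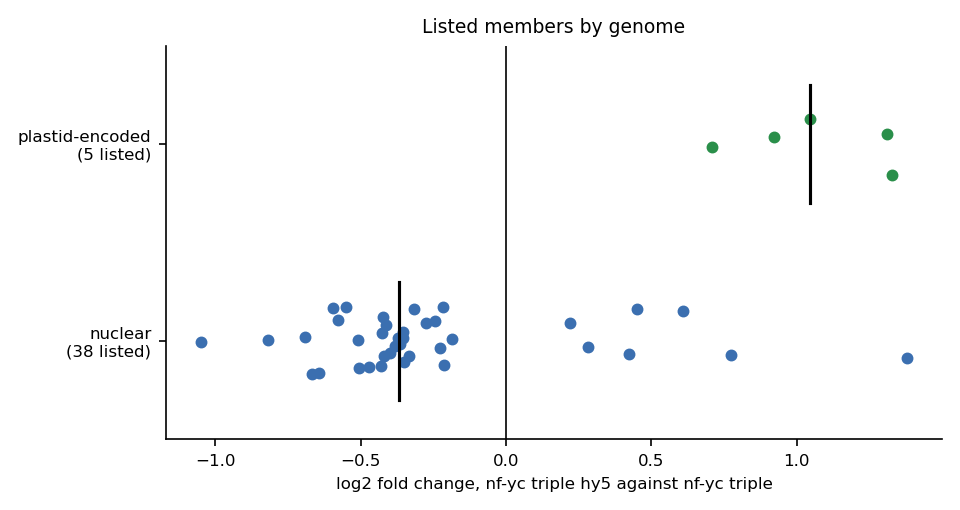
Log2 fold change of the combined mutant against *nf-yc triple* (x axis) for the 38 nuclear and 5 plastid-encoded members listed in that comparison; each point is a gene, spread vertically for legibility, and black bars are medians. The plastid-encoded genes lie between 0.71 and 1.33, and the nuclear median is -0.37.

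Whether the effect of one mutation depended on the other was described from pairs of comparisons with no library in common. The effect of *hy5* was seen in Col-0 and again, in other libraries, between the combined mutant and *nf-yc triple*. Of the 54 members listed in the first and 43 in the second, 33 were in both (61.1% and 76.7%), and all 33 had the same sign. Among all described genes, 2497 were in both (56.4% and 63.4%), and 2449 had the same sign. The effect of the NF-YC mutations was seen in Col-0 and again between the combined mutant and *hy5*. There 18 members were in both lists (36.7% of 49 and 85.7% of 21), all with the same sign, and 451 of 489 described genes shared a sign.

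The tables share a scale, which allowed a value missing from 1 table to be derived from 2 others. Over 961 genes in the 3 tables concerned, the fold change of the combined mutant minus that of *nf-yc triple* and minus that between them left a median of -0.01 on the log2 scale (SD 0.0016). Derived values carry no p. With them, 45 members had a value for the *hy5* effect in both backgrounds. It was more positive in the *nf-yc triple* background for 34 and more negative for 11, with a median difference of 0.08. Over 3288 described genes the median difference was -0.01, and 1567 were more positive. Members were mostly lower in *hy5* and described genes were not, so these 2 medians are not like for like. Every such difference contains the Col-0 libraries that also decided which members were listed against Col-0, and without values per library it was not tested. A value derived against *nf-yc triple* exists only for a member not listed there, so it is mostly small. Set against a listed lower *hy5* value, it gives a difference that leans positive, so the split of 34 and 11 is partly built in. The 33 members listed in both comparisons need no derived value, and more of them were more positive than more negative as well. The 13 nuclear photosystem I members were all listed for both *hy5* effects. Of these, 8 were more positive and 5 more negative, with a median difference of 0.02.

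Single members spread on both sides. *PSAD-2* fell by 0.82 on the log2 scale with *hy5* loss in *nf-yc triple* and by 0.63 in Col-0. *PSI-P* had -0.22 in *nf-yc triple* and -0.50 in Col-0. *PSBQ-2* had -0.51 in both backgrounds. *OEP16-1* had 1.38 and 1.06, and *PSBP-2* had -1.05 in *nf-yc triple* and a derived -0.37 in Col-0, the widest gap, at a low level of expression.

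**Figure D5:**
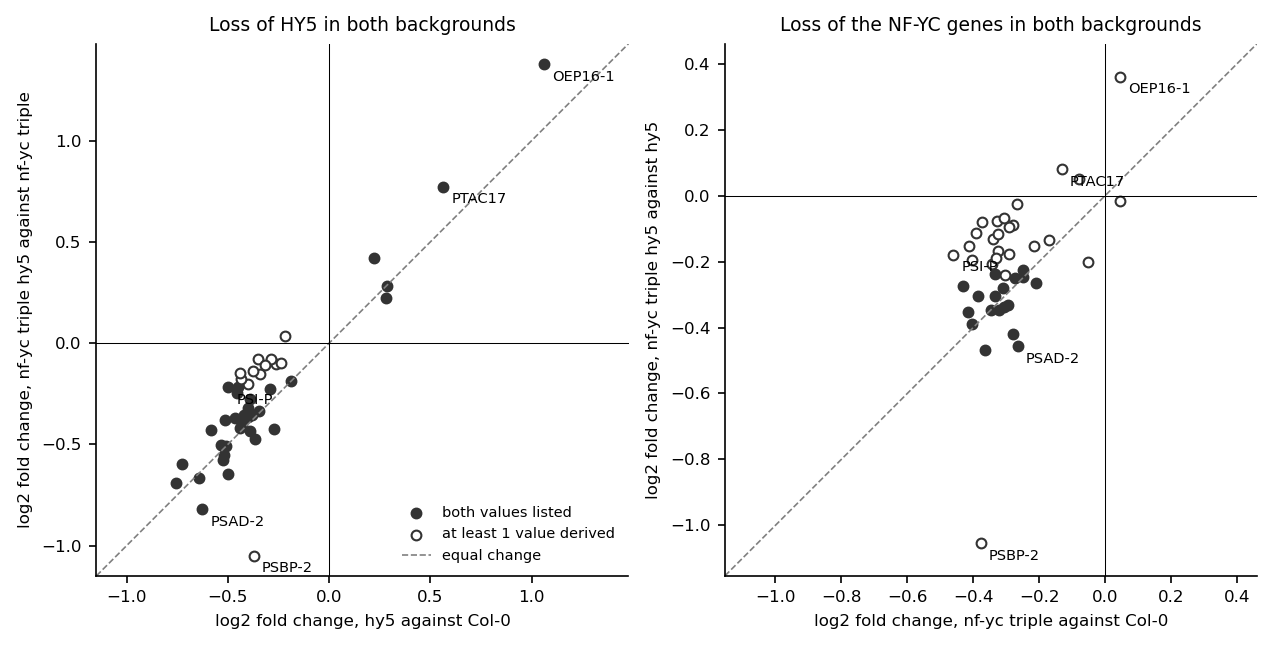
Log2 fold changes of members for *hy5* loss in Col-0 (x) and in *nf-yc triple* (y) on the left, and for loss of the NF-YC genes in Col-0 (x) and in *hy5* (y) on the right. Filled points are listed in both comparisons, open points have a derived value and no p, and the dashed line marks equal change. In the left panel 34 of 45 members lie above the line. Values derived against *nf-yc triple* exist only for members not listed in that comparison, so open points there tend to lie above it. More filled points also lie above it than below it, and neither lean was tested.

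The antenna genes, which the rule leaves out, moved in the same direction and further. All 17 were lower in *hy5* and in the combined mutant against Col-0, with medians of -0.74 and -1.05, where the members' medians were -0.38 and -0.53. Of the same 17, 11 passed in *nf-yc triple*, all lower, with a median of -0.33, close to the -0.32 of the members. The *hy5* effect on antenna genes was more negative in *nf-yc triple* than in Col-0 for 12 of 17, with a median difference of -0.17. That of the members was 0.08, with derived values that lean positive. It was 0.02 for nuclear photosystem I members (8 more positive, 5 more negative). For nuclear photosystem II members it was 0.05 (12 more positive, 2 more negative), again with derived values. Of the 9 nuclear photosystem II members listed in both comparisons, all but *PSBR* were more positive, some by very little. Of the antenna genes 15 were listed in both comparisons. The difference between the gene groups was not tested.

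Other genes of photosynthesis were counted over lists of pathway genes. Of 11 genes for electron carriers and cytochrome b6f, *hy5* and the combined mutant each had 8 lower and 3 higher, and *nf-yc triple* had 7 lower. *PGR5* and *PGRL1A*, of cyclic electron flow, stood at -1.11 and -0.98 in the combined mutant, and *PETE1*, a plastocyanin, at -0.83. The higher ones included *FNR2*, a ferredoxin-NADP reductase, at 0.28 in *hy5*. Of 4 chloroplast ATP synthase genes, 3 were lower in each mutant against Col-0, with *ATPD* at -0.43, -0.36 and -0.65.

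Of 18 Calvin-Benson cycle genes, *nf-yc triple* had 15 lower and 1 higher, and both other mutants had 13 lower and 1 higher. *RCA*, Rubisco activase, stood at -0.34, -0.55 and -0.83, and the higher gene was *CP12-2*, a regulator of the cycle, at 0.35, 0.31 and 0.43. Beside photosystem II, *PSBS*, the sensor of photoprotective quenching, whose description lies outside the rule, stood at -0.41, -0.90 and -1.13.

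Nuclear regulators of chloroplast gene expression included larger changes. Of 11, *hy5* and the combined mutant each had 6 lower, *nf-yc triple* had 2 lower, and none was higher against Col-0. *SIG5*, a sigma factor of the plastid RNA polymerase, stood at -0.37, -0.82 and -1.63 against Col-0, and at -1.25 and -0.80 against *nf-yc triple* and *hy5*. *CGA1*, a GATA factor, stood at -1.58 in *hy5* and -1.75 in the combined mutant, and *GLK2*, an activator of photosystem genes, at -0.60 and -0.84. Neither *CGA1* nor *GLK2* was listed in *nf-yc triple*.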

How the data were processed

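Whole seedlings of 4 genotypes were sequenced, with 2 libraries each. The authors used CASAVA 1.8.2 for demultiplexing, iPlant for trimming, BWA to map reads to TAIR10 gene models and edgeR for pairwise comparisons, for which version and settings are not stated in the paper, labels or tables. The deposited log2 fold changes and mean log2 CPM values, and the deposited p-values with their Benjamini-Hochberg adjustment, are the authors' output, cut at an adjusted p under 0.05. No value per library was analysed, so depth is unknown and no new test was made. Nothing says that the 2 libraries came from separate sowings, so p-values measure the spread of these libraries alone, possibly a technical one. A signed fold change made by the authors, a score negative for lower genes, was not used, because 779 of its values in the *nf-yc triple* table go against the log2 column (0 of them members).

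Tables were joined by gene identifier, members were found by description, and "called" means at least 1.5-fold at an adjusted p under 0.05. How many genes each comparison tested was worked out from the ranks of the p-values and their adjusted values. Names of nuclear members are those of the reference. Names of plastid-encoded members were assigned by gene identifier, and other pathway genes and root markers carry the common names set in their lists. Python 3.11.15, pandas 2.3.3, numpy 2.4.6 and matplotlib 3.10.9 were used, and scripts were tested on simulated data. The members and lists were chosen with earlier results of these data known. The rule for named genes took the 6 lowest and 4 highest log2 fold changes among members called against Col-0 in each mutant, up to 6 members called in each other comparison, up to 8 members in all 5 tables, the 2 members of each role with the highest mean log2 CPM, and per pathway list the 3 genes with the smallest adjusted p. Others were named after their values were seen.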

Additional observations from a re-analysis of the deposited data

How the results depend on the processing

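The number of members called depended on the fold limit in every comparison. Called members were 0 in *nf-yc triple*, 7 in *hy5* and 27 in the combined mutant, *nf-yc triple hy5*, each compared with Col-0, and 14 and 1 in the combined mutant against *nf-yc triple* and *hy5*. With no fold limit they were 49, 54, 56, 43 and 21, and with a fold limit of 2 they were 1 in *hy5*, 4 in the combined mutant and 5 against *nf-yc triple*. Against *hy5*, the 1 call (*PSBP-2*) was lost at an adjusted p under 0.01 and at a mean log2 CPM of at least 3, leaving 0 under each. Without plastid-encoded members, an alternative chosen after seeing the data, the 14 calls against *nf-yc triple* became 9, since 5 of the called genes are plastid-encoded. Every other total of called members stayed within 1.5 times under the settings tried, but within the *hy5* total the 2 higher members became 1 at a mean log2 CPM of at least 3 and 1 without division, movement and other plastid members. No paired analysis was possible because no value per library was analysed, and leaving out a replicate could not be run for the same reason. Genes absent from a table have no p here, and depth per library is unknown, so an unlisted member is not shown to be unchanged.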

Other observations

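Mitochondrion-encoded genes, which lie outside the description rule, were listed in 4 of the 5 comparisons and never lower. In the combined mutant (*nf-yc triple hy5*) 6 were higher than in Col-0, with log2 fold changes between 0.67 and 1.66, and 2 were higher in *hy5*, at 0.58 and 0.85. Plastid-encoded genes had both signs in the combined mutant against Col-0, where 2 of the 7 listed were higher and 5 lower, and 5 were higher than in *hy5*. No explanation of these values was tested.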
